A study of Mus musculus with 10 samples.

Results

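In mouse microglia, 1005 autosomal protein-coding genes carried a strong H3K4me3 peak at the promoter and yet had no called chromatin contact. They were found among 20696 autosomal protein-coding genes, of which 12291 had an H3K4me3 peak within 1 kb of a transcription start site (TSS) in both replicates. A promoter was termed strong when its tallest such peak reached 300 tags per 10 M tags of the library in both replicates, which held for 1774 genes (14.4% of the marked genes). A strong promoter was termed contact-free when none of its TSSs lay inside a 5-kb anchor bin of the PLAC-seq interaction list, which held for 1005 of 1774 (56.7%), against 7649 of all 12291 marked genes (62.2%). The 1005 genes were thus chosen by their H3K4me3 values and by the absence of a call, so both are given below as a description and were not tested; nor was any test made across genes, which are not replicates.

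The cells were wild-type C57/Bl6 microglia, labelled CD45+ CD11b+ CX3CR1+, with the CD45 gate set low in the study's methods. H3K4me3 ChIP-seq was done in 2 libraries, with input libraries that entered only through the authors' peak files, and H3K4me3 PLAC-seq in 2 libraries that the authors pooled into 1 list of 26689 interactions, so contacts have no replicate error. Whether the replicates were different animals or preparations is not in the labels, so the spread between them may be technical. The H3K4me3 libraries had 12.8 M and 13.4 M tags, which gave 27845 peaks in replicate 1 and 26574 in replicate 2. Of 83 autosomal markers of neurons, astrocytes, oligodendrocytes, vessels, border macrophages and blood leukocytes, 23 were marked and 0 had a strong promoter. Of all autosomal genes 59.4% were marked, and 14.4% of marked genes were strong. With few markers marked, the 0 is no measure of purity. The depth of PLAC-seq is unknown, so the absence of a call does not show the absence of a contact.

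H3K4me3, trimethylation of lysine 4 of histone H3, is laid down around the start sites of active genes and is highest on the first nucleosomes downstream of the TSS. PLAC-seq joins DNA fragments that lie close together in the nucleus and enriches those that carry the mark, with an antibody against it. The study used it to link active promoters to putative enhancers, but a called interaction by itself joins only a pair of 5-kb bins. Promoters of broadly used genes are typically rich in CpG dinucleotides and lack a TATA box, and much of their activity is thought to be encoded close to the start site, whereas cell identity genes often rely on distal enhancers.

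The promoters of 8 contact-free genes are shown because they span the range described here. Hjurp, Nrbp1, Atp6v0b and Dnaja1 are among the 12 tallest, and Irf1, Rela, Stat3 and Cst3 are examples from the lists of myeloid transcription factors and homeostatic microglia genes. Each sequence runs from 150 bases before an annotated start to the 30th base from the start on, 5′ to 3′ along the gene, from RefSeq on GRCm38.p6 (mm10). Among several starts of a gene, the one nearest the tallest peak of replicate 1 was taken. Capitals mark exact matches, on either strand, to the ETS core CCGGAAG, the GC box GGGCGG, the CCAAT box, the E-box CACGTG, the CRE core TGACGT and the ZNF143 core ACTACAA. They lie at chr1:88277550-88277729 (- strand, Hjurp), chr5:31240733-31240912 (+ strand, Nrbp1), chr4:117887300-117887479 (- strand, Atp6v0b), chr4:40722772-40722951 (+ strand, Dnaja1), chr11:53770323-53770502 (+ strand, Irf1), chr19:5637391-5637570 (+ strand, Rela), chr11:100939511-100939690 (- strand, Stat3) and chr2:148875483-148875662 (- strand, Cst3).
Hjurp: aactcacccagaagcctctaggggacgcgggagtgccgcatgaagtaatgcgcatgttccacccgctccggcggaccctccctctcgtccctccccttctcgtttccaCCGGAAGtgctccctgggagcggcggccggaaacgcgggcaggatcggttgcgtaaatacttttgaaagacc
Nrbp1: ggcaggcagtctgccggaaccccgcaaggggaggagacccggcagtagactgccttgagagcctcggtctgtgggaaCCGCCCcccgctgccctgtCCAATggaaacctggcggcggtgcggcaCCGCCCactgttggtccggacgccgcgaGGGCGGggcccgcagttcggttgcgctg
Atp6v0b: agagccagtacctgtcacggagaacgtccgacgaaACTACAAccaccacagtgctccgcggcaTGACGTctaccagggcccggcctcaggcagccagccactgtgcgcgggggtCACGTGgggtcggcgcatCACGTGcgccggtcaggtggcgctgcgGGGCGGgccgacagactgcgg
Dnaja1: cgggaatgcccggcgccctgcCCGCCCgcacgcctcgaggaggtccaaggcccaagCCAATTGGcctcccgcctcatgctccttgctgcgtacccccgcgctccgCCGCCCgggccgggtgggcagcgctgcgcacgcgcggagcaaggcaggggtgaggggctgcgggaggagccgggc
Irf1: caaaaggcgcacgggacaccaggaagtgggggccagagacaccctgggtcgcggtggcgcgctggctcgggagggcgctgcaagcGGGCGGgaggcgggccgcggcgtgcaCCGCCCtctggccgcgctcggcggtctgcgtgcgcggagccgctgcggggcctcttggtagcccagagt
Rela: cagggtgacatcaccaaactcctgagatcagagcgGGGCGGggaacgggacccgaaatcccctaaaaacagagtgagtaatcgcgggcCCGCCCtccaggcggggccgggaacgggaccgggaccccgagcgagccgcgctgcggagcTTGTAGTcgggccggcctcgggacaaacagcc
Stat3: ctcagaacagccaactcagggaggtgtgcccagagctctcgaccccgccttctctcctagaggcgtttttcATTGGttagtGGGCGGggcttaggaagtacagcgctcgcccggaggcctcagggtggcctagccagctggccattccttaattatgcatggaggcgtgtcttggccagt
Cst3: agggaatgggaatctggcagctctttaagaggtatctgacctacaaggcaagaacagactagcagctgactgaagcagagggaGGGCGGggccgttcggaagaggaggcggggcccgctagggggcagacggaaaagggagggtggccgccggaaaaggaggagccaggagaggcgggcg

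The sequences differ in CpG content and in their short motifs. The ratio of observed to expected CpG was 1.02 at Irf1 and 0.913 at Atp6v0b, but 0.545 at Stat3 and 0.581 at Cst3. The Atp6v0b promoter holds E-boxes, a CRE core and a ZNF143 core, the Hjurp promoter an ETS core, and those of Irf1 and Cst3 hold only GC boxes among the motifs searched. GC content over the 300 bases from 250 before the start to 50 from the start on was lowest at Hjurp (59.7%) and highest at Dnaja1 (76%). A match is a description of the letters and no evidence of binding.

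The tallest promoter without a contact, and the tallest of all marked promoters, was that of Hjurp, whose product loads the centromeric histone variant. Its peak reached 1146.8 tags per 10 M in replicate 1 and 1146.5 in replicate 2. Its scaled input tags, 5.5 and 9.8, also exceeded the 99th percentile over all peaks (4.9 and 5.6), as did those of 11 contact-free genes in replicate 1 and 15 in replicate 2. The part of the input in the height at Hjurp was not tested. The next peak, at 466.7 and 533.3, was shared by Nrbp1, a pseudokinase gene, and Gm9970, which lie head to head. Skil, which encodes a corepressor of SMAD proteins, followed with 522 and 473.7. Arcn1, which encodes the delta subunit of the coat around retrograde Golgi vesicles, had 519.6 and 471.4. Clk1, a kinase gene for SR splicing factors, was lower in replicate 1 (451.9) and higher in replicate 2 (537.1). Both replicates therefore placed these genes well above the threshold, but their order within the list depended on the replicate.

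The remaining genes of the 12 tallest had values between 438.6 and 518.4. Strn4, a scaffold gene of a phosphatase complex, had 454.2 and 518.4. Atp6v0b, a membrane subunit of the vacuolar proton pump, had 479.1 and 487.1. B230219D22Rik had 461.2 and 494.5, and Phf12, a PHD finger protein of a histone deacetylase complex, had 438.6 and 514.7. Dnaja1, a J-domain co-chaperone gene, had 481.5 and 469.2. Among these 12 genes, only Hjurp exceeded the highest values of strong promoters with a contact, 545.4 in replicate 1 and 616.1 in replicate 2.

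**Figure D1:**
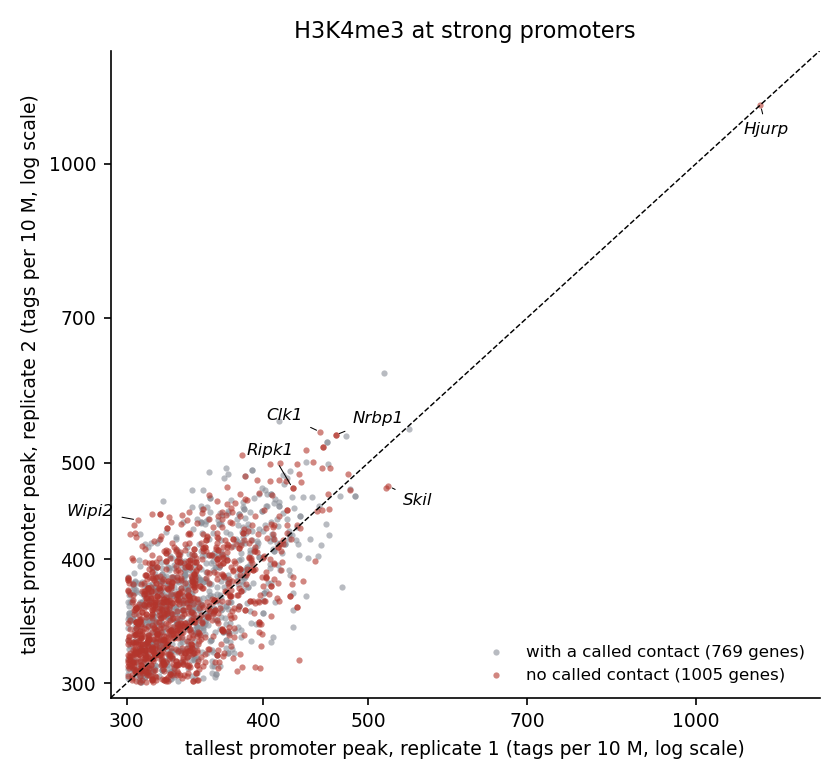
Each point is 1 strong promoter; the horizontal axis gives its tallest H3K4me3 peak in replicate 1 and the vertical axis that in replicate 2, both as log-scaled tags per 10 M, and values are equal on the dashed line. The 1005 contact-free promoters (red) lie among the 769 with a called contact (grey), most of both close to 300, and Hjurp stands alone above 1000.

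Across all 1005 genes the median value was 334.2 tags per 10 M in replicate 1 (quartiles 316.3 and 363) and 357.3 in replicate 2 (328.2 and 389.4). The 769 strong promoters with a contact had medians of 341.2 and 362.5, and all marked genes of 215.8 and 222.3. Contact-free genes were higher in replicate 2 in 716 cases (71.2%), and strong promoters with a contact in 540 (70.2%), so the shift between replicates was shared by both groups. The log2 ratio of replicate 2 over replicate 1 had a median of 0.074 and an SD of 0.14 among contact-free genes. Strong promoters with a contact had a median of 0.075 and an SD of 0.14, and all marked genes an SD of 0.31. All 1005 contact-free genes and all 769 with a contact were within 1.5-fold. The rule required 300 in both replicates, so this closeness is in part set by the selection. The largest ratios were at Wipi2 (307 and 437.9), Hspa9 (304.6 and 432.6), Csnk1e (302.3 and 424.4), Gabarapl2 (316.3 and 443.8) and Pank2 (305.4 and 425.2), all higher in replicate 2. Wipi2 and Gabarapl2 both act in autophagy, Hspa9 encodes a mitochondrial chaperone, Csnk1e a casein kinase and Pank2 an enzyme of coenzyme A synthesis.

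Many genes lay close to the threshold. The lower of both values was under 330 for 542 genes (53.9%), and 400 or more for 53 (5.27%). Just inside were Eif3m (317.1 and 300.6), Pdcd7 (308.5 and 300.6), Xrn1 (312.4 and 300.6), Akap8 (300.7 and 314.8) and Dnaaf5 (300.7 and 305.1). Just outside, with a lower value of 299.9, were Bmpr2 (299.9 and 383.4), Ubn1 and Glyr1 (305.4 and 299.9 at 1 shared peak), Sdcbp (299.9 and 345.4) and Atp6v1c1 (335.8 and 299.9). The smallest peak of a contact-free gene held 386 tags in replicate 1, for which counting error alone gives a 95% exact Poisson interval of 271.5 to 332.3 tags per 10 M. Genes on either side of the threshold are therefore not distinguishable at this depth.

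The share of genes without a contact was lower among taller promoters. In classes of the lower replicate value, 75.5% of 1805 genes below 50 had no contact (Wilson 95% interval 73.5 to 77.4), 62.3% of 3025 genes between 100 and 200 (60.6 to 64.1) and 58.4% of 4733 genes between 200 and 300 (57.0 to 59.8). Above the threshold it was 59.1% of 1257 genes between 300 and 350 (56.4 to 61.8), 52.9% of 395 between 350 and 400 (48.0 to 57.8) and 43.4% of 122 at 400 or more (35.0 to 52.3). These intervals cover counting error only, since genes of 1 list share bins and interactions. Of the 10517 marked genes under the threshold, 6644 had no contact (63.2%). By chromosome, the contact-free share of strong promoters ranged from 46.3% on chromosome 15 (31 of 67) to 64.8% on chromosome 5 (79 of 122).

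**Figure D2:**
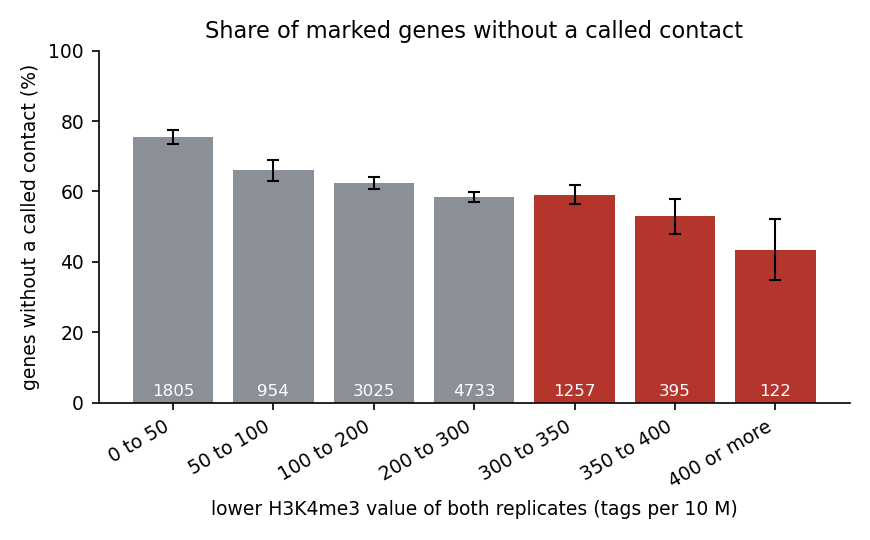
Bars give the percentage of marked autosomal genes with no TSS in an anchor bin, by the lower H3K4me3 value of both replicates in tags per 10 M, with Wilson 95% intervals and the number of genes at the foot; red bars are classes above the threshold of 300. The share goes from 75.5% in the lowest class to 43.4% in the highest.

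Most strong promoters of the transcription machinery and of the mitochondrial ribosome were contact-free. Of 16 strong promoters of RNA polymerase subunits, Mediator subunits and general transcription factors, 14 had no contact (87.5%, Wilson 95% interval 64.0 to 96.5), with Med30 and Taf11 as the exceptions. Med13, a subunit of the kinase module of Mediator, had 372.4 and 381.9, Med7 of the middle module 352.1 and 399.8, and Gtf2a2, a subunit of TFIIA, 332.7 and 393.8. The group held Polr2j, Polr2m and Polr3c besides. Of 10 mitochondrial ribosomal protein genes 8 were contact-free (80%, 49 to 94.3), led by Mrps24 (342.8 and 396.8), Mrpl3 (346.7 and 376.7) and Mrpl43 (356 and 349.8). Of 6 strong aminoacyl-tRNA synthetase genes 5 were contact-free (83.3%, 43.7 to 97.0), with Eprs, which charges tRNAs with glutamate and proline, at 413.7 and 441.6, Ears2 at 363 and 399.8 and Aars at 345.1 and 376.7. Over all strong promoters the share was 56.7%. The intervals give counting error for lists of few genes and were not used to test a list against this share.

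Among cytosolic ribosomal protein genes, 11 of 76 marked promoters were strong, close to the 14.4% of all marked genes, and 2 of these 11 were contact-free (18.2%, Wilson 95% interval 5.14 to 47.7), Rpl19 with 314 and 370.7 and Rps13 with 318.6 and 340.1. This count depended on which interactions were included. It rose to 9 of 11 when interactions had to reach a false discovery rate (FDR) of 0.0001 or lower, to 10 with at least 20 read pairs and to 8 with only summits of clusters and single interactions, while the share of all strong promoters rose from 56.7% to 70.2%, 71.6% and 69.6%. It was 5 genes with replicate 2 alone and 3 with replicate 1 alone. The RNA polymerase group gave 14, 15 and 14 of 16 under the same limits, so its distance from the share of all strong promoters was smaller than without them. Mitochondrial ribosomal protein genes gave 9, 9 and 8 of 10 under these limits.

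Genes of protein folding, degradation and RNA processing were divided. Of 20 strong chaperone promoters 15 were contact-free (75%, 53.1 to 88.8), among them Dnaja1, the endoplasmic reticulum co-chaperone gene Dnajc3 (402.8 and 429.6) and Dnajc13 (415.2 and 414.7), which acts in endosomal trafficking. Hsp90aa1, Hsp90ab1 and Hspa5 belonged to the same group. With an FDR of 0.0001 or lower, at least 20 read pairs or summits only, the chaperones gave 15, 15 and 16 of 20. The share of all strong promoters was then 70.2%, 71.6% and 69.6%. Of 10 proteasome genes 7 were contact-free, with the lid subunit gene Psmd11 at 409.8 and 432.6, Psmb4 of the core at 332.7 and 409.5 and Psmd6 at 314.7 and 383.4. Translation factors gave 7 of 13, with the helicase genes Eif4a3 (430 and 433.4) and Eif4a2 (387.2 and 390.9) and with Eif5 (330.3 and 378.2). The hnRNP and SR splicing factors gave 11 of 23, led by Srsf5 (385.6 and 460.2), Srsf4 (402.8 and 387.9) and Srsf6 (322.5 and 422.2). DEAD and DEAH box helicases gave 6 of 8, with Ddx42 (343.6 and 328.2), Dhx32 (332.7 and 337.2) and Ddx59 (321 and 326). Respiratory chain and ATP synthase genes gave 6 of 11, with Atp5g3 at 395.8 and 423.7, Cyc1 at 325.7 and 352.1 and Cox11 at 342.8 and 323.7. The shares of these groups ranged from 47.8% to 75%, on either side of the 56.7% of all strong promoters.

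Membrane traffic genes were close to the share of strong promoters as a whole. SNARE, sorting and coat protein genes gave 22 of 38 (57.9%, 42.2 to 72.1), led by the vesicle SNARE gene Vamp2 (396.5 and 466.2), Vps37a (383.3 and 425.2) and Vps4b (363.8 and 441.6), which both serve the ESCRT pathway. Rab GTPases gave 10 of 17 (58.8%), with Rab40c at 395 and 480.4, Rab1a at 381 and 442.3 and Rab2a at 388 and 427.4. Subunits of the vacuolar proton pump gave 2 of 5, Atp6v0b and Atp6v1e1 (318.6 and 317.8). Of 6 strong lysosomal genes 3 were contact-free: Lamp1, a major membrane glycoprotein of lysosomes (317.9 and 417), Asah1, which encodes acid ceramidase (337.3 and 343.1), and Glb1, which encodes beta-galactosidase (332.7 and 315.5).

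The other families gave similar shares. Solute carriers gave 11 of 22, with Slc15a4, a lysosomal peptide and histidine transporter gene, at 374 and 450.5, the zinc transporter gene Slc30a5 at 390.3 and 400.6 and Slc10a7 at 430 and 358. Ubiquitin-conjugating enzymes and deubiquitinases gave 8 of 17, with Ube2n (356.8 and 438.6), Ube2g1 (366.9 and 405) and Usp48 (321.8 and 419.2). Genes of the families of lysine methyltransferases and demethylases gave 7 of 13, with the demethylase genes Kdm2a (421.5 and 432.6) and Kdm7a (390.3 and 399.1) and with Setd3 (354.5 and 418.5), a SET domain gene whose product methylates a histidine of actin. Zfp genes gave 15 of 24, with Zfp91 (355.3 and 388.6), Zfp654 (342.8 and 399.1) and Zfp106 (343.6 and 384.9), and Tmem genes 12 of 21, with Tmem170b (435.5 and 380.4), Tmem64 (348.2 and 434.9) and Tmem86a (342.8 and 424.4). Of 60 marked replication-dependent histone genes 0 were strong, against 14.4% of all marked genes, so this list has no contact-free share. Among 6 strong reference housekeeping genes 4 were contact-free, the cofilin gene Cfl1 (430 and 498.3), Actg1 (406.7 and 434.1), the profilin gene Pfn1 (398.1 and 368.5) and Ywhae.

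**Figure D3:**
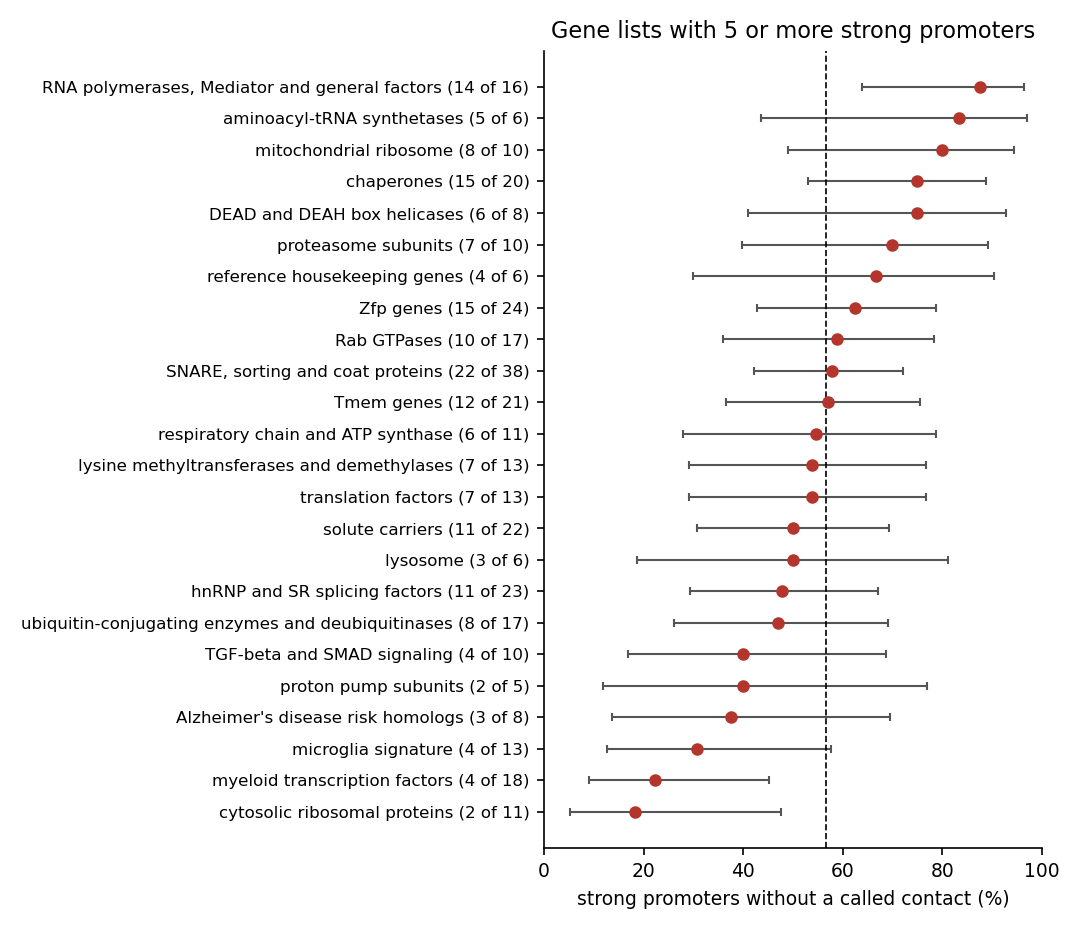
Points give the percentage of each list's strong promoters without a called contact, with Wilson 95% intervals for counting error, for lists with 5 or more strong promoters (counts in brackets); the dashed line is the 56.7% of all strong promoters. RNA polymerase, Mediator and general factor genes are highest at 87.5%, and myeloid transcription factors (22.2%) and cytosolic ribosomal proteins (18.2%) lowest.

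The shares of lists of genes linked to microglia are to be read beside the 56.7% of all strong promoters. Of 18 strong myeloid transcription factor genes 4 had no contact (22.2%, Wilson 95% interval 9 to 45.2). Hif1a, the oxygen-regulated factor, had 381 and 464.7, Stat3, which transduces cytokine signals, 369.3 and 371.5, Rela, the p65 subunit of NF-kappaB, 312.4 and 365.5, and Irf1, an interferon-responsive factor, 323.3 and 329.7. Their 14 counterparts with a contact included Fli1, Ets2, Mef2d and Klf3. The count of 4 became 9 when the FDR had to be 0.0001 or lower, 9 with summits of clusters only and 6 with at least 20 read pairs. The share of all strong promoters rose to 70.2%, 69.6% and 71.6% under these limits. The list was written with earlier results of these data known, in which Irf1, Stat3, Skil, Tgfb1, Cst3, Clcf1 and Scoc had already appeared as genes without a contact, so their place here is not independent evidence.

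Of 10 strong TGF-beta and SMAD genes 4 were contact-free (40%, 16.8 to 68.7). The ligand gene Tgfb1 had 311.6 and 320.7, the receptor-associated Tgfbrap1 348.2 and 334.9, Usp15, a deubiquitinase gene of the pathway, 327.2 and 343.9, and Skil has been given above. The receptor genes Tgfbr2 and Bmpr1a and the SMAD genes Smad1 and Smad7 were strong and had contacts. The count of 4 became 7 of 10 with summits of clusters only, beside 69.6% of all strong promoters. It was 6 with an FDR of 0.0001 or lower (70.2% of all) and 5 with at least 20 read pairs (71.6% of all). The microglia signature is the study's list of genes expressed far more in microglia than in other macrophages, and 4 of its 13 strong promoters were contact-free (30.8%, 12.7 to 57.6): Clcf1, a cytokine gene (391.9 and 390.1), Cst3, which encodes the protease inhibitor cystatin C (343.6 and 337.9), Scoc (342.8 and 311.8) and Usp2 (306.2 and 301.3). This count, too, became 7 with summits of clusters only, where the share of all strong promoters was 69.6%. It stayed at 4 with an FDR of 0.0001 or lower (70.2% of all) and was 6 with at least 20 read pairs (71.6% of all). It was 2 when only the 5′ end of each gene was used or when bins next to an anchor counted as contacts. With a tallest peak inside an anchor bin also counted as a contact, as at Clcf1, it was 3. Cst3 was the 1 contact-free gene among 3 strong homeostatic genes, the others being Mertk and Tgfbr2.

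Smaller lists gave single genes. Ripk1, a kinase gene of cell death and inflammatory signaling, was tall (426.2 and 471.4) and the 1 contact-free gene of 4 strong inflammatory genes. The class I histocompatibility gene H2-D1 (324.9 and 352.8) was contact-free, while the other strong disease-associated gene, Ctsb, was not; reads of H2-D1 may be divided with near-identical class I genes. In antigen presentation 3 of 4 were contact-free, with H2-D1, the peptide loading gene Pdia3 (321.8 and 444.6) and the trimming peptidase gene Erap1 (363.8 and 352.8). Of 8 strong Alzheimer's disease risk homologs 3 were contact-free, among them Tmem106b, a lysosomal membrane protein gene (321 and 351.3), and Rabep1, a gene of an endosomal Rab effector (309.3 and 348.3). All 3 strong interferon response genes had contacts, among them the receptor genes Ifnar2 and Ifngr2.

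The surroundings of the contact-free promoters varied widely. The nearest anchor bin was 13 bins away at the median, or 65 kb, and 154 genes (15.3%, Wilson 95% interval 13.2 to 17.7) had 1 in the adjoining bin. Of these 154, 60 had a TSS within 1 kb of the border of that bin. Another 132 genes were 2 to 4 bins away, 338 were 5 to 19, 297 were 20 to 99 and 84 (8.36%) were 100 or more. The farthest were Kdm4c, a histone demethylase gene, at 9020 kb (349 and 315.5), Tdrd3 at 7810 kb (304.6 and 312.5), Mcph1 at 3750 kb (333.4 and 305.8), and Pdcd10 and Serpini1 at 3395 kb, which shared a peak of 316.3 and 387.9. Strong H3K4me3 thus also occurred in stretches of several megabases without a single called anchor.

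At most contact-free promoters no called interaction passed over the TSS. This held for 784 of 1005 genes (78.0%, 75.3 to 80.5) against 256 of 769 strong promoters with a contact (33.3%), and 32 against 161 genes were spanned by 10 or more. The second group is not an independent reference, since it was chosen from the same interaction list by having an anchor at a TSS. Why its TSSs were spanned more often was not tested. Over all marked genes the median was 0 spanning interactions and the upper quartile 3. These were 0 and 0 at contact-free promoters, and 2 and 8 at strong promoters with a contact. The most spanned contact-free TSSs were those of Cdc42se2 (31 interactions), Pfn1 (27), Lig3 (24), Rcl1 (24) and Aars (20). Irf1 and Skil, each with an anchor in the adjoining bin, were spanned by 15 interactions, Stat3 by 9, Cst3 by 8 and Hif1a by 7. These promoters lay between the bins of called interactions and had no TSS in an anchor bin. For Irf1 and Skil this depended on the bin rule, since the authors' annotation named both in the adjoining anchor bin. At Irf1 that bin took part in 1 interaction, with 16 read pairs against 3.435 expected.

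**Figure D4:**
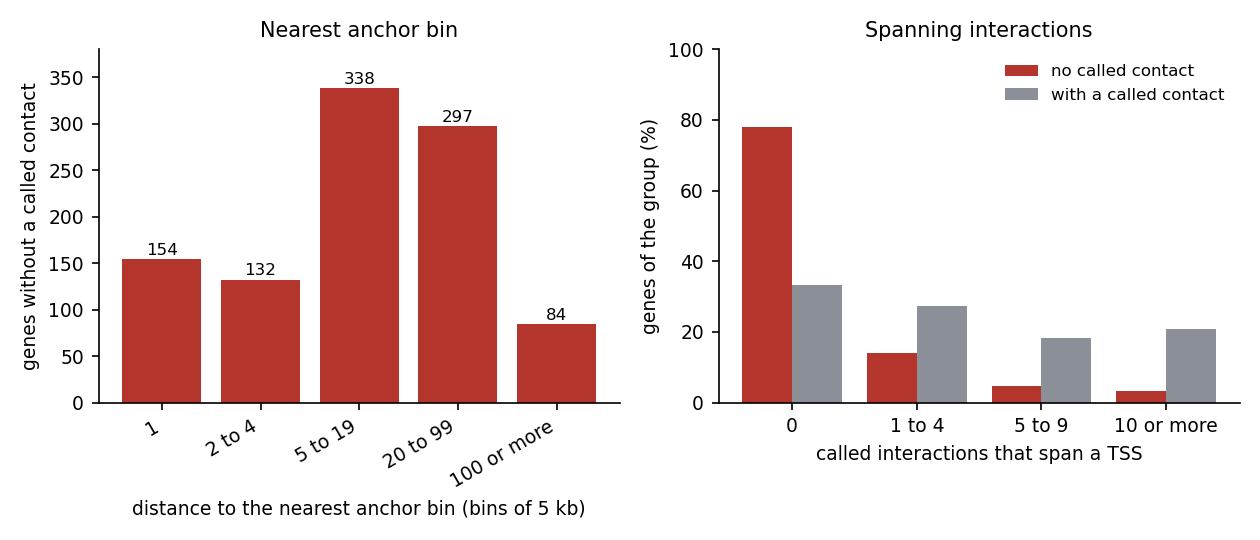
The left panel gives the number of contact-free genes by distance from a TSS bin to the nearest anchor bin, in bins of 5 kb; the right panel gives the percentage of contact-free (red) and contacted (grey) strong promoters by the number of called interactions that span a TSS. Of the contact-free genes 154 adjoin an anchor bin, and 78.0% are spanned by 0 interactions against 33.3%.

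The absence of a contact depended on the bin for a minority of genes. The authors' own annotation of the interaction list, which assigns genes to bins by another rule, named 54 of the 1005 genes (5.37%, 4.14 to 6.95) in an anchor bin, in each case 1 bin from a TSS bin. The tallest of these were Skil, Cfl1, Dennd6a, Myh9 and Msl1. At Skil the adjoining bin took part in 7 interactions, the strongest with 12 read pairs against 2.04 expected (a ratio of 5.89). Cfl1 had 1, with 61 against 27.4 (2.23), Dennd6a 1, with 33 against 11.9 (2.78), Myh9 1, with 29 against 9.43 (3.08), and Msl1 2, the stronger with 33 against 13 (2.54). For 10 of the 1005 genes, Clcf1 among them, the tallest peak itself, though no TSS, lay inside an anchor bin. With anchors and their adjoining bins both counted as contacts, 851 genes remained contact-free (48.0% of strong promoters).

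Some contact-free promoters came as pairs. Both genes of a pair were counted, so the intervals here treat genes that share a peak and a bin as separate. The share over all marked genes was not computed. An opposite-strand TSS of another protein-coding gene lay within 1 kb for 246 of 1005 genes (24.5%, 21.9 to 27.2) and for 131 of 769 strong promoters with a contact (17.0%, 14.5 to 19.9). In 234 of the 246 the partner was contact-free and strong as well, which follows in part from the rule, since such pairs tend to share the tallest peak and the bin. The 1005 genes used 877 different tallest peaks in replicate 1 and 880 in replicate 2, and 252 genes shared a 5-kb bin with another contact-free gene. Counting each peak of replicate 1 once, an alternative chosen after seeing the data, gave 55.5% of strong peaks without a contact. Gene length (median 30512 against 31680 bp) and the number of protein-coding 5′ ends within 100 kb (mean 4.03 against 3.56) were of similar size in both groups.

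In 13 places at least 3 contact-free genes had successive 5′ ends within 50 kb of each other, and these runs held 41 genes. Only contact-free genes were considered, so other protein-coding genes may lie between them. Runs of strong promoters with a contact were not counted. The longest were Vps4a, Pdf, Cog8 and Nip7 over 25.7 kb on chromosome 8, with values between 305.4 and 366.9 at 3 peaks, and Oxld1, Ccdc137, Arl16 and Hgs over 9.6 kb on chromosome 11 (306.2 to 348.2, at 2 peaks). Both runs mix genes of membrane traffic, such as Vps4a, Cog8 and Hgs, with genes of other functions. Runs of 3 included Gm10306, Caap1 and Plaa (316.3 to 402), Dag1, Rhoa and Tcta (351.3 to 408.8), and Pdia3, Catsper2 and Serf2 (321.8 to 453.4).

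The H3K4me3 peak of a contact-free promoter sat just downstream of the start. Its center lay at a median of 175 bp downstream of the TSS in replicate 1 and 177 bp in replicate 2, and downstream in 841 (83.7%) and 845 (84.1%) of 1005 genes. At strong promoters with a contact the medians were 194 and 195 bp, and at all marked genes 144 and 142 bp. In replicate 1 the center fell in an intron of the gene for 430 genes (42.8%), against 42.9% of strong promoters with a contact. It fell in a coding exon for 237 (23.6% against 24.2%) and in an untranslated exon for 237 (23.6% against 25.4%). For 101 genes it lay outside the gene (10.05% against 7.5%). The peaks of both replicates overlapped in 971 of 1005 genes (96.6%) and in 95.1% of those with a contact. At Cfl1 they did not, with centers 516 and 211 bp downstream.

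**Figure D5:**
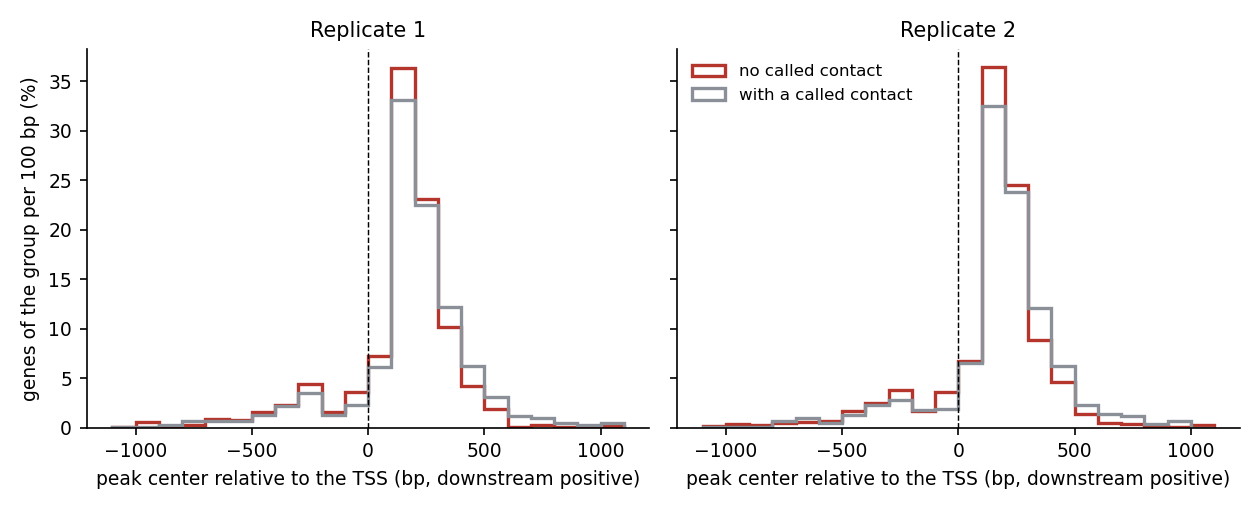
Histograms give the percentage of contact-free (red) and contacted (grey) strong promoters by the distance of the center of the tallest peak from the TSS in bp, in steps of 100 bp, for replicate 1 (left) and replicate 2 (right). Most peaks lie downstream, with medians of 175 and 177 bp in the contact-free group and 194 and 195 bp in the contacted group.

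Contact-free promoters were divided between single H3K4me3 peaks and wider domains. Peaks in the files had a fixed size of 184 bp in replicate 1 and 188 bp in replicate 2, and the width of a domain was measured by joining peaks within 1000 bp. The tallest peak stood alone at 538 of 1005 genes (53.5%, 50.4 to 56.6) in replicate 1 and at 588 (58.5%, 55.4 to 61.5) in replicate 2, against 49.3% (45.8 to 52.8) and 53.7% (50.2 to 57.2) of strong promoters with a contact. At 490 genes (48.8%) it stood alone in both replicates. The median width was therefore that of 1 peak, 184 bp and 188 bp, and 592 bp and 188 bp at strong promoters with a contact, so the difference in medians appeared in replicate 1 only. The median of contact-free genes in replicate 1 became 594 bp with peaks joined within 2000 bp. Domains over 2000 bp occurred at 6 contact-free genes in replicate 1 (0.60%) and 9 in replicate 2 (0.90%). Among strong promoters with a contact they occurred at 23 (2.99%) and 12 (1.56%), so the difference was smaller in replicate 2. The widest belonged to Kmt2e (2372 and 2195 bp), a chromatin regulator gene, to Erp29 and Tmem116, which shared a domain (3515 and 808 bp), to Cst3 (1327 and 2737 bp) and to Arid4a (1950 and 2053 bp), a gene of a retinoblastoma-binding protein. The widths of Kmt2e and Arid4a were alike in both replicates, whereas those of the others differed by more than 2-fold.

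In base composition, contact-free promoters resembled strong promoters with a contact and differed more from marked promoters at large. Over the 300 bases around the TSS of the tallest peak, read from GRCm38.p6, median GC content was 66.3% against 67% with a contact, 63% for all marked genes and 57.3% for all 20696 genes. The ratio of observed to expected CpG had medians of 0.893, 0.892, 0.803 and 0.62. The whole 5-kb bin had a median GC content of 48.0% in the contact-free group and 49.1% in the contacted group, and 21.4% and 19.6% of its bases were repeat-masked.

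Short motifs were counted in the same 300 bases, on both strands except for the TATA box. The GC box GGGCGG occurred at 772 contact-free promoters (76.8%), 79.3% of those with a contact and 48.5% of all 20696 promoters. The ETS core CCGGAAG occurred at 234 (23.3%, Wilson 95% interval 20.8 to 26.0), 20.8% (18.1 to 23.8) and 12.1%. The CGCG element TCTCGCGA was found at 49 (4.88%), 4.16% and 1.34%, the YY1 core AAGATGG at 111 (11%), 10.9% and 6.71%, the NRF1 core GCATGCGC at 64 (6.37%), 5.98% and 3.50%, and the CRE core TGACGT, which includes the full CRE TGACGTCA, at 148 (14.7%), 13% and 8.75%. Each of these shares was higher at strong promoters of either kind than at all promoters. Shares over all marked genes lay between them, at 69.8% (GC box), 18.7% (ETS), 2.18% (CGCG), 7.67% (YY1), 5.27% (NRF1) and 11.9% (CRE core). The NRF1 value was inside the Wilson interval of contact-free promoters (5.02 to 8.05).

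The motifs searched for PU.1, AP-1, IRF and SMAD factors occurred at no more than 6.24% of either group. Over all marked genes the shares were 2.84% (PU.1), 3.995% (AP-1), 6.62% (IRF) and 0.22% (SMAD). These motifs differ in length, so their shares cannot be compared with each other. The PU.1 core GAGGAAGT, which shares the letters GGAAG with the ETS core, occurred at 25 contact-free promoters (2.49%), 2.99% of those with a contact and 3.24% of all promoters. The AP-1 site TGANTCA was found at 33 (3.28%), 2.60% and 6.54%, the IRF repeat TTCNNTTTC at 57 (5.67%), 6.24% and 8.06%, and the palindromic SMAD box GTCTAGAC at 1 contact-free promoter (0.10%), 0.13% and 0.19%. The TATA box TATAAA, searched only in sense and starting 40 to 20 bases before the start, occurred at 6 contact-free promoters (0.60%), 0.91% and 2.50%. Of the remaining motifs, the CCAAT box was found at 31.8%, 33.3% and 37.2%, the E-box CACGTG at 11.4%, 9.75% and 7.86%, and the ZNF143 core ACTACAA at 3.68%, 3.25% and 3.82%. Over all marked genes the shares were 0.85% (TATA box), 35.8% (CCAAT box), 10.3% (E-box) and 4.11% (ZNF143).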

How the data were processed

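The 1005 genes, the gene lists and the motifs were chosen with earlier results of these data known. H3K4me3 ChIP-seq and H3K4me3 PLAC-seq of wild-type microglia were used, with 2 libraries each. Bowtie2, HOMER and mm10 are named in the submitters' processing notes, without versions. The deposited peak lists, 1 per library, are in HOMER format and may not be the calls that guided interaction calling, for which the study's methods name the ENCODE pipeline. Peak heights were deposited as a signal in tags per 10 M of the library, a scaling by the authors. The deposited tag count of a peak is a whole number, and its input tags were scaled to the ChIP library before deposit. The focus ratio (a fraction) and the fold over input (a ratio) were also deposited and not used in the text.

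The authors pooled both PLAC-seq libraries and called interactions with MAPS between 5-kb bins at 10 to 1000 kb. The deposited count of read pairs, the expected count and the false discovery rate, an adjusted p-value of at most 0.01, were used as given. Hi-C libraries were not analysed here.

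Genes and TSSs of protein-coding transcripts came from GENCODE M21 basic on GRCm38, the build of the files; gene IDs with 1 symbol were merged. Per gene, the tallest peak within 1 kb of any TSS was taken in each replicate. A spanning interaction has its bins on either side of a TSS. Of the 327 symbols of the microglia signature, 293 matched an autosomal gene by symbol. Computation used Python 3.11.15, pandas 2.3.3 and SciPy 1.17.1, and was tested on simulated data. PCR reads without molecular identifiers are not independent molecules, so Wilson and Poisson 95% intervals cover counting error only. Alternatives were other thresholds, windows, sets of interactions, bin rules and single replicates. Promoter sequences came from RefSeq (833 of 1005 genes had an entry), and composition and motifs from the genome for all genes.

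Genes were named by rule: the 12 tallest, the 5 on each side of the threshold, members of the microglia lists, the 3 tallest of each other list, the 5 tallest annotated in an anchor bin, the 5 farthest, most spanned, widest and most different between replicates, and the 5 longest runs. The narrowest were tied at 490 genes and were not named. The genes given as exceptions with a contact, the further members named by symbol only, and Ywhae were chosen after their values were seen. A few genes that the rule selects are not reported here.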

Additional observations from a re-analysis of the deposited data

How the results depend on the processing

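Over 8 summary values and their alternatives, 79 of 104 results stayed within 1.5 times the reported count, within its Wilson interval or within 1 SD between replicates, and 25 moved. The number of contact-free strong promoters, 1005, was 3770 at a threshold of 200 and 53 at 400; the latter also gave a share of 43.4%. Requiring 1 replicate alone gave 1157 to 1540 genes, shares of 55.8% to 56.8%, 3 to 5 ribosomal protein genes, 4 to 5 signature genes, median values of 330.3 to 340.9 tags per 10 M, an adjoining anchor at 14.7% to 15.2%, 0 spanning interactions at the median, and a width of 184 bp without replicate 2. The share rose to 70.2% when the FDR had to be 0.0001 or lower, 71.6% with at least 20 read pairs and 69.6% with summits of clusters only, since fewer interactions were counted, and fell to 48.0% with adjoining bins counted. Counting each tallest peak once and recounting 5 gene lists were chosen after seeing the data. Ribosomal protein genes among the contact-free numbered 24 at a threshold of 200, 0 at 400, 9, 10 and 8 under the stricter sets of interactions in the order above, and 1 with adjoining bins. Signature genes numbered 16 at a threshold of 200, 0 at 400, 2 with only the 5′ end of each gene and 2 with adjoining bins. Under the stricter sets of interactions, in the same order, they numbered 4, 6 and 7. The median value was 277.6 at a threshold of 200 and 447.8 at 400. Contact-free genes with an adjoining anchor made up 10.6% with at least 20 read pairs and 18.7% with summits only. The median width in replicate 1 was 594 bp with peaks merged within 2000 bp. No paired analysis was possible because the 2 H3K4me3 libraries are 1 group and no test was made.

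The rule rests on a threshold that counting error blurs, on 1 pooled interaction list of unknown depth and on 5-kb bins. The pooled list gives no replicate error for the absence of a contact. Limits on false discovery rate, read pairs and summits move genes only toward the contact-free group by construction.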
